A study of Homo sapiens with 8 samples.

Results

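The genes described here are 36 targets, chemokines, cytokines, complement factors and subunits of the NF-kB pathway, taken by symbol from the 67008 genes counted in SKOV3 cells, a human ovarian cancer line in long use. RNA was sequenced from 4 lines with 2 libraries each. KO 2F4 and KO 5H5 are clones in which PDE10A, a phosphodiesterase that degrades cAMP and cGMP, was knocked out. EV 1B9 is a clone with an empty vector, and the parental cells are the line without either change. All cells were untreated and grown in McCoy's medium with serum, and the 2 libraries of a line came from separate culture passages. Each knockout clone and the vector control is a single clone, so a difference between lines cannot be told apart from a difference between clones. The sources used here do not say how PDE10A was edited.

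NF-kB is a family of dimeric transcription factors. In resting cells the canonical dimer of RELA and NFKB1 products is held in the cytoplasm by IκBα, the product of NFKBIA, and signals from cytokine or Toll-like receptors lead to the breakdown of this inhibitor and to transcription of chemokine, cytokine and acute-phase genes. A slower, non-canonical arm runs from receptors such as CD40 through MAP3K14 to the processing of NFKB2, whose product pairs with RELB. Many targets restrain or extend the response, among them NFKBIA, TNFAIP3 and the NF-kB subunit genes themselves. In ovarian cancer cells, CXCL8 and IL6 are among the best-known secreted products of the pathway.

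The lowest total of gene counts was 15483683, in parental 1, and the highest 28648044, in EV 1B9 1. The share of counted reads with no single annotated gene was lowest in KO 5H5 2 (24.1%) and highest in parental 1 (44.6%), with 33.4% in KO 2F4 2, so results are also given without parental 1 and KO 2F4 2. Across genes, expression and GC content had a rank correlation that ran from 0.123 in EV 1B9 2 to 0.332 in parental 1 and KO 2F4 2. PDE10A had 0.196 and 2.26 CPM in KO 2F4, 0.229 and 0.438 CPM in KO 5H5, 4.94 and 8.87 CPM in EV 1B9 and 9.04 and 2.54 CPM in parental. All 4 knockout libraries lay below all 4 controls, but KO 2F4 2 was close to parental 2, so the level of PDE10A barely sets that library apart from a control. Epithelial markers were high in every library (summed 5397 to 20470 CPM), and 8 of 16 leukocyte markers, CD3E, LYZ and S100A8 among them, were at 0 in all 8 libraries. Levels are CPM, counts relative to library size after TMM scaling, and a gene is called where the adjusted p is under 0.05 over all genes tested (quasi-likelihood test of edgeR, adjusted by the Benjamini-Hochberg method). P-values of the comparisons between lines measure only the spread between passages.

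RefSeq promoters on GRCh38.p14 were matched for 26 of the 36 genes, C3 and RELB not among them, and 2 motifs were searched on both strands in the 250 bases before the start: the NF-kB consensus and the shorter form GGNNTTTCC, which can cover the same bases. The consensus was found in 14 of the 26 (53.8%), against 9.57% of all 27305 promoters. GGNNTTTCC was found in 15 (57.7%), against 5.48% of all promoters. The genes were chosen as genes of this pathway, so a higher share than in all promoters is no result about them. Close paralogs such as CXCL1, CXCL2 and CXCL3 also entered these counts as separate genes. A match describes the letters and does not show a binding site. The 120 bases before the start are shown, 5′ to 3′ in the direction of the gene, with matches to either motif in capitals. The CXC chemokines, IL6 and IL32 are shown because they differed between lines or lie beside those that did, and NFKBIA as a target that carried a match and was not called.
CXCL1 (chr4:73869273-73869392, plus strand): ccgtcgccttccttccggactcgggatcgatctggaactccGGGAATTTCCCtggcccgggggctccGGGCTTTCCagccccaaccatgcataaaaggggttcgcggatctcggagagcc
CXCL2 (chr4:74099196-74099315, minus strand): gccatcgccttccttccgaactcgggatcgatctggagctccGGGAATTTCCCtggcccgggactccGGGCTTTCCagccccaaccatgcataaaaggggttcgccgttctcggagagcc
CXCL3 (chr4:74038690-74038809, minus strand): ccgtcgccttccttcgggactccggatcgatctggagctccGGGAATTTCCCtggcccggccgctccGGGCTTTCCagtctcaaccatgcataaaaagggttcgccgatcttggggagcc
CXCL8 (chr4:73740449-73740568, plus strand): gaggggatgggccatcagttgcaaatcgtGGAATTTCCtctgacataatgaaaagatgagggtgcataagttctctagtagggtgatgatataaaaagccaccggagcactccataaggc
IL6 (chr7:22727080-22727199, plus strand): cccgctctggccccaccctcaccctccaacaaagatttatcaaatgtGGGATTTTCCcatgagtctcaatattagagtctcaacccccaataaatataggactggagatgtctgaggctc
IL32 (chr16:3065283-3065402, plus strand): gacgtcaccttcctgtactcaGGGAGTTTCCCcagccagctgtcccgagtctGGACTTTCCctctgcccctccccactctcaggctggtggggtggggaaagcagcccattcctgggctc
NFKBIA (chr14:35404750-35404869, minus strand): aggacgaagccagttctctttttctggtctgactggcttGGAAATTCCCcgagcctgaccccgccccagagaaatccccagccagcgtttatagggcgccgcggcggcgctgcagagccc
The promoters of CXCL1, CXCL2 and CXCL3 carried the same pair of matches. After global alignment of the 120 bases shown, CXCL1 was 93.4% identical to CXCL2 and 90.8% to CXCL3, against 43.6% between CXCL1 and CXCL8. These values describe the promoters, and the identity of the transcripts was not computed. Reads of close paralogs can be split or lost in counting. How far this affected the levels of CXCL1, CXCL2 and CXCL3 was not tested. For IL11 and NFKB2, which also differed between lines, neither motif was found in this window.

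Of the 36 genes, 23 passed the filter on low counts in the comparisons between lines, and 10 of these were called in at least 1 comparison of lines, where 14.2% of all genes were. No counts were found for 5 genes in any library: CFB and C1R of the complement system, the monocyte chemokine CCL2, the acute-phase gene SAA1 and TNF, itself an inducer of NF-kB. Another 6 had 2 to 12 counts in all 8 libraries together (CXCL5, CXCL6, CCL20, SAA2, CSF2 and PTGS2). IL1B and ICAM1 also missed the filter. IL1B, an inflammatory cytokine, had 89 of its 107 counts in KO 2F4 1 and 0 in KO 2F4 2. ICAM1, an adhesion molecule for leukocytes, had 41 of its 74 counts in KO 2F4 1. The genes that passed are those with counts in at least 1 line, so they do not stand for all 36. Calls are those of edgeR with all 8 libraries. Of the 13 tested genes without one, DESeq2 called C1S, CX3CL1, CSF1 and TNFAIP2 in at least 1 test. Leaving out libraries gave calls for C1S, CX3CL1, IL1A, IL18, LIF, NFKBIA, TNFAIP2 and TNFAIP3, while RELA, NFKB1, CXCL3 and BIRC3 had none in any alternative run.

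Among the 4 lines, EV 1B9 lay lowest and KO 2F4 highest for part of the genes. EV 1B9 had the lowest mean for 14 of the 23 tested genes, against 31.6% of all 15551 genes tested. KO 2F4 had the highest mean for 15, against 26.3% of all genes. Both held for 10 genes, C3, CX3CL1, CXCL1, CXCL2, CXCL8, IL32, IL6, NFKB2, RELA and RELB, against 16.6% of all genes. Asked library by library, the pattern was narrower. Both EV 1B9 libraries lay below all 6 others for 10 genes (C3, CXCL1, CXCL8, IL32, IL6, LCN2, LIF, NFKB2, RELB and TNFAIP2), against 13.1% of all genes. Both KO 2F4 libraries lay above all 6 others for 6 genes (C1S, C3, CXCL2, CXCL3, IL6 and NFKB2), against 6.83%. C3, IL6 and NFKB2 were the 3 genes for which both held, against 2.63% of all genes. CXCL3 had 43 and 14 counts in KO 2F4 and at most 7 in any other library. It passed the filter only through KO 2F4, so its place among the 6 and the 15 is no result. A test for any difference among the 4 lines called 6 genes, C3, CXCL1, IL6, IL32, NFKB2 and RELB, where 7.14% of all genes were called. Without any 1 library it called 10 to 14 genes, with 8.33% to 24.2% of all genes called, and 14 without parental 1 and KO 2F4 2, with 17.1% of all genes. In bulk RNA, fewer cells that express a gene and less RNA per cell cannot be told apart.

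**Figure D1:**
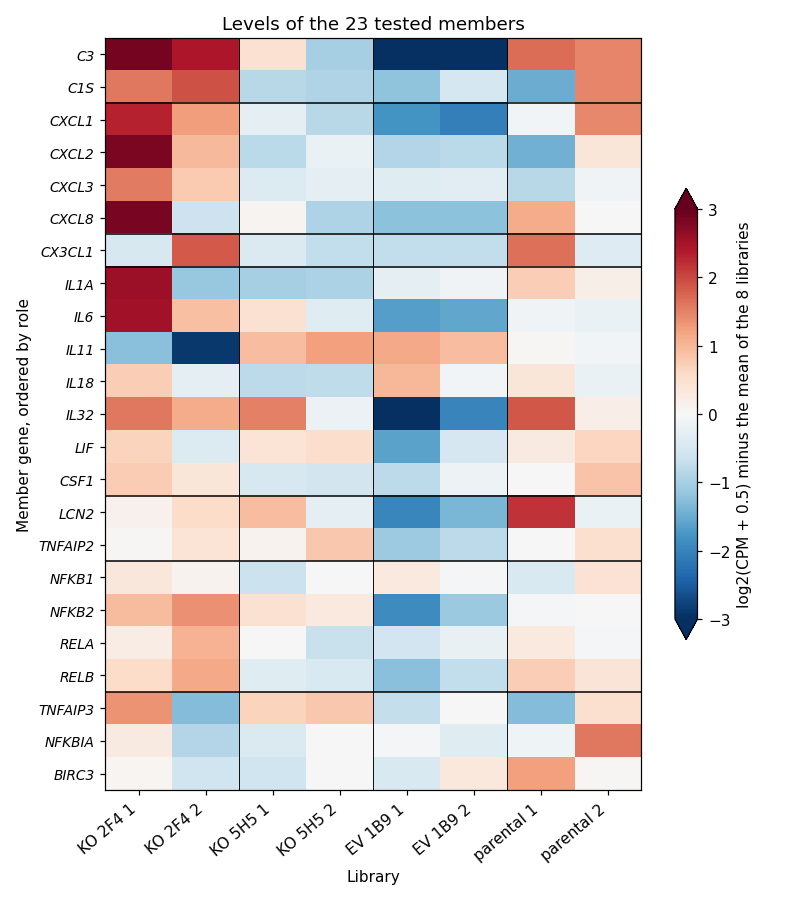
Levels of the 23 tested genes (rows, by role) in the 8 libraries (columns), as log2(CPM + 0.5) minus the mean of the 8 libraries. C3, IL6 and NFKB2 are highest in both KO 2F4 libraries and lowest in both EV 1B9 libraries, while IL11 is lowest in KO 2F4.

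C3, the central protein of the complement cascade (ENSG00000125730.17, chromosome 19, 6677704 to 6730562 on GRCh38), had 86.6 and 63.2 CPM in KO 2F4, 15.8 and 5.48 CPM in KO 5H5, 0.108 and 0.484 CPM in EV 1B9 and 37.6 and 32.5 CPM in parental. No 2 lines overlapped, and the order ran from KO 2F4 through parental and KO 5H5 to EV 1B9. C3 rose in KO 2F4 against EV 1B9 by 8.05 log2 units (SE 0.79, adjusted p 3.5e-05) and in KO 5H5 against EV 1B9 by 5.23 (SE 0.72, adjusted p 0.00063). In EV 1B9 against parental it fell by 6.95 log2 units (SE 0.76, adjusted p 0.000222). These calls were made with only 4 and 12 counts of C3 in EV 1B9, and all 15 alternative settings kept them. The sizes moved with the EV 1B9 library: without EV 1B9 1 and without EV 1B9 2 they were 7.22 and 9.34 in KO 2F4, 4.41 and 6.54 in KO 5H5, and -6.11 and -8.24 in EV 1B9 against parental. Without KO 5H5 1 the KO 5H5 value was 4.19. Parental cells were not called apart from either knockout clone: KO 2F4 against parental gave 1.10 (SE 0.56, adjusted p 0.411) and KO 5H5 against parental -1.72 (SE 0.57, adjusted p 0.328). C1S, a protease of the classical complement pathway, had 3.73 and 4.81 CPM in KO 2F4, 0.286 and 0.256 CPM in KO 5H5, 0.108 and 0.484 CPM in EV 1B9 and 0 and 3.38 CPM in parental. EdgeR with all 8 libraries called it in no comparison (KO 2F4 against EV 1B9 3.86, SE 1.47, adjusted p 0.0957), while DESeq2 called it in KO 2F4 against EV 1B9.

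CXCL1, which draws neutrophils through the receptor CXCR2 (ENSG00000163739.5, chromosome 4, 73869393 to 73871242), had 61.2 and 29.1 CPM in KO 2F4, 9.72 and 6.46 CPM in KO 5H5, 3.08 and 2.50 CPM in EV 1B9 and 11.2 and 33.0 CPM in parental. EV 1B9 lay below all other libraries, and KO 2F4 overlapped parental. CXCL1 rose in KO 2F4 against EV 1B9 by 4.01 log2 units (SE 0.62, adjusted p 0.00133) and in EV 1B9 against parental it fell by 2.98 (SE 0.60, adjusted p 0.0226). Without KO 2F4 1 the first value was 3.23, and without parental 2 the second was -1.92. The call against parental was lost with the suffix as a block (adjusted p 0.0529). KO 5H5 against EV 1B9 gave 1.53 (SE 0.57, adjusted p 0.170), which was not called. CXCL2, a close paralog with the same receptor, had 9.12 and 2.184 CPM in KO 2F4, 0.286 and 0.694 CPM in KO 5H5, 0.243 and 0.282 CPM in EV 1B9 and 0 and 1.25 CPM in parental. Both KO 2F4 libraries were above the rest, and the other 3 lines were low. CXCL2 rose in KO 2F4 against EV 1B9 by 4.41 (SE 1.38, adjusted p 0.0497). The call was lost without KO 2F4 1 (2.89, adjusted p 0.216), without EV 1B9 1 (4.26, adjusted p 0.0668) and without EV 1B9 2 (4.49, adjusted p 0.0512).

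CXCL8, or interleukin-8, had 10.8 and 0.510 CPM in KO 2F4, 1.14 and 0.329 CPM in KO 5H5, 0.162 and 0.161 CPM in EV 1B9 and 2.86 and 1.06 CPM in parental. The high value belonged to 1 KO 2F4 library, and the other lay below both parental libraries. In KO 2F4 against EV 1B9 it was called higher (log2 fold change 5.08, SE 1.35, adjusted p 0.0261). Without KO 2F4 1 the log2 fold change was 1.48 with an adjusted p of 0.559. CXCL3, the third close paralog, had 2.11 and 1.02 CPM in KO 2F4 against at most 0.324 CPM in any other library and was not called (KO 2F4 against EV 1B9 2.97, SE 1.74, adjusted p 0.256). CX3CL1, a chemokine tethered to the cell surface, had 0.098 and 2.48 CPM in KO 2F4, 0.114 and 0 CPM in KO 5H5, 0 in both EV 1B9 libraries and 2.11 and 0.139 CPM in parental. Its high libraries were KO 2F4 2 and parental 1, the 2 with the largest share of reads assigned to no single gene. Pooled over libraries, CX3CL1 had 36 counts in KO 2F4 and 0 in EV 1B9, and the 95% counting interval of the ratio starts at 16.8. That interval leaves out the spread between libraries, and KO 2F4 1 held 2 of the counts and KO 2F4 2 held 34. EdgeR did not call CX3CL1 (adjusted p 0.0793), while DESeq2 called it in KO 2F4 against EV 1B9 and in EV 1B9 against parental.

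Among the cytokines, IL6, a ligand of the gp130 receptor complex (ENSG00000136244.12, chromosome 7, 22725884 to 22732002), had 8.53 and 2.48 CPM in KO 2F4, 1.66 and 0.730 CPM in KO 5H5, 0 and 0.040 CPM in EV 1B9 and 0.979 and 0.879 CPM in parental. As for C3, both KO 2F4 libraries were the highest and both EV 1B9 libraries the lowest. EV 1B9 held 1 count of IL6 in all, against 208 in KO 2F4 and 49 in KO 5H5. The ratio of KO 2F4 to EV 1B9 was 377, with a 95% counting interval of 66.9 to 14953, and that of KO 5H5 to EV 1B9 was 67.5 (11.6 to 2719). IL6 was called higher in KO 2F4 (adjusted p 0.00299) and in KO 5H5 (adjusted p 0.0259) against EV 1B9. The fitted log2 fold change of KO 2F4, 7.92, was 6.64 without KO 2F4 1, 8.56 without KO 2F4 2, 6.86 without EV 1B9 1 and 9.89 without EV 1B9 2. The KO 5H5 call was lost without KO 5H5 1 (adjusted p 0.0684) and without EV 1B9 1 (adjusted p 0.144). EV 1B9 against parental was not called (adjusted p 0.0677). Part of the IL6 exons (20.7%) overlap a gene on the other strand, and whether the counting used strand is not stated.

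IL32, a cytokine found in epithelial and lymphoid cells (ENSG00000008517.16, chromosome 16, 3065297 to 3082192), separated EV 1B9 from the other 3 lines. It had 54.6 and 39.2 CPM in KO 2F4, 51.9 and 15.95 CPM in KO 5H5, 0.567 and 4.15 CPM in EV 1B9 and 66.7 and 20.9 CPM in parental. The other 3 lines overlapped one another, and all 6 of their libraries were above EV 1B9. Against EV 1B9, IL32 rose in KO 2F4 by 4.34 log2 units (SE 0.87, adjusted p 0.0074) and in KO 5H5 by 3.86 (SE 0.86, adjusted p 0.0190). Without EV 1B9 1 and without EV 1B9 2 the values were 3.46 and 6.34 in KO 2F4 and 3.001 and 5.88 in KO 5H5. Without KO 5H5 1 and without KO 5H5 2 the KO 5H5 value was 2.71 and 4.45, and it lost its call with the title suffix as a block (adjusted p 0.0645). In EV 1B9 against parental it fell by 4.23 (SE 0.87, adjusted p 0.0274), a call lost with offsets for GC content and length (-3.47, adjusted p 0.0537) and with the suffix as a block (adjusted p 0.0859). Without EV 1B9 1, EV 1B9 2 and parental 1 in turn it was -3.33, -6.21 and -3.08.

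IL11, another gp130 ligand (ENSG00000095752.7, chromosome 19, 55364389 to 55370463), ran the other way. It had 1.08 and 0 CPM in KO 2F4, 6.58 and 8.25 CPM in KO 5H5, 7.78 and 6.57 CPM in EV 1B9 and 3.32 and 3.01 CPM in parental. KO 2F4 was below all 6 other libraries, while KO 5H5 and EV 1B9 overlapped. In KO 2F4 against EV 1B9 IL11 fell by 3.64 log2 units (SE 0.96, adjusted p 0.0261), the only gene of the set called lower there. The size rests on the KO 2F4 library at 0, since the log2 fold change was -2.75 without KO 2F4 2 and still called (adjusted p 0.0229). LIF, the third gp130 ligand, had 47.8 and 22.6 CPM in KO 2F4, 39.97 and 43.8 CPM in KO 5H5, 9.62 and 21.2 CPM in EV 1B9 and 36.2 and 46.9 CPM in parental, and was not called in any comparison. IL1A, an alarm cytokine released by damaged epithelium, had 6.08 CPM in KO 2F4 1 and 0 in KO 2F4 2, against 0.057 to 1.36 CPM in the other 6 libraries. IL18 and CSF1, the macrophage growth factor, were present in all 8 libraries (10.0 to 35.3 CPM and 35.2 to 109.9 CPM) and were not called.

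**Figure D2:**
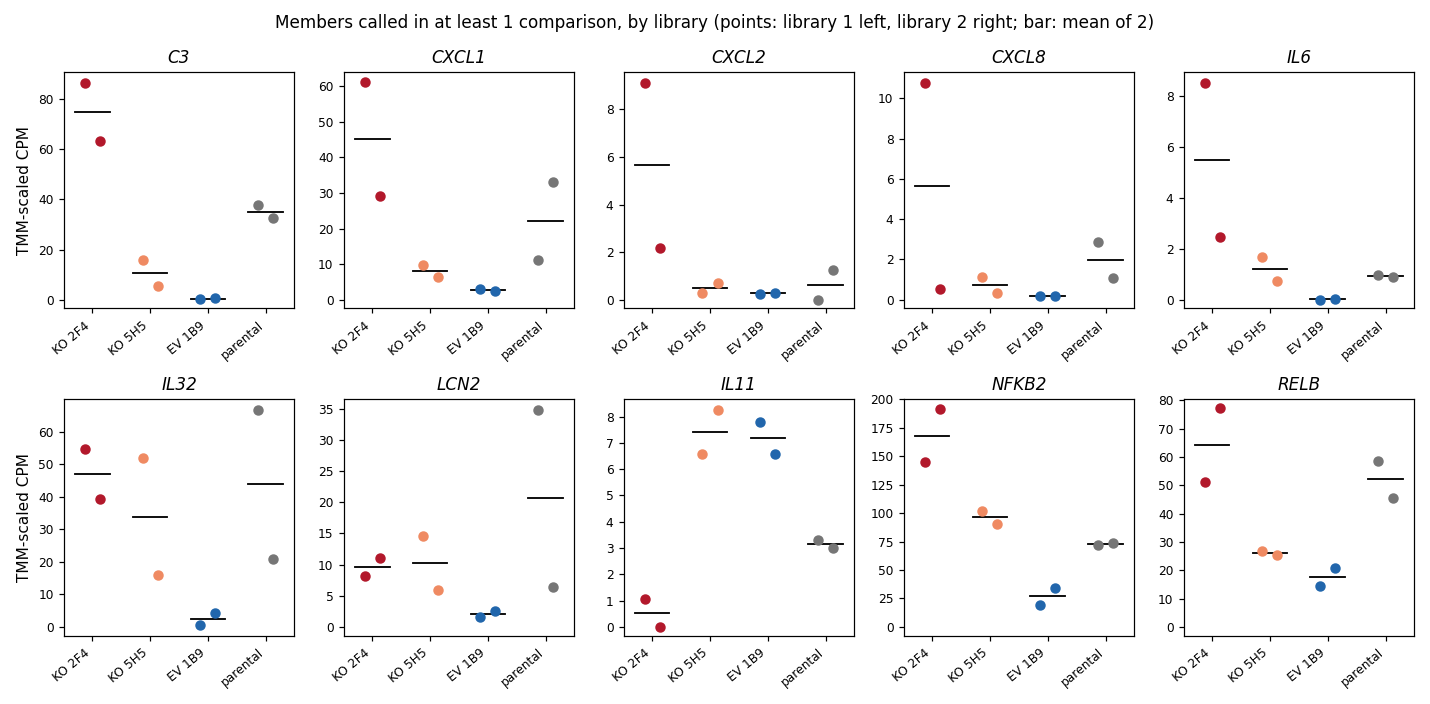
TMM-scaled CPM of the 10 genes called in at least 1 comparison, 1 panel a gene, with 1 point per library and a bar at the mean of the 2 libraries of each line. EV 1B9 is at or near the bottom of every panel except IL11, and the KO 2F4 libraries are far apart for CXCL2, CXCL8 and IL6.

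Of the acute-phase and effector genes, LCN2, an iron-carrying secreted protein (ENSG00000148346.12, chromosome 9, 128149071 to 128153455), had 8.09 and 11.1 CPM in KO 2F4, 14.5 and 5.99 CPM in KO 5H5, 1.54 and 2.54 CPM in EV 1B9 and 34.9 and 6.34 CPM in parental. EV 1B9 was below all other libraries, and 1 parental library was far above the other. In EV 1B9 against parental LCN2 fell by 3.34 log2 units (SE 0.76, adjusted p 0.0491), but the call was lost in 6 of 15 alternatives. These included RLE size factors (adjusted p 0.0534), the suffix as a block (adjusted p 0.102) and GC and length offsets (-2.52, adjusted p 0.103). Without parental 1 the value was -1.54. TNFAIP2, a TNF-induced gene, had 84.3 and 110.7 CPM in KO 2F4, 89.7 and 145.8 CPM in KO 5H5, 39.0 and 47.8 CPM in EV 1B9 and 83.5 and 116.6 CPM in parental. EV 1B9 again lay below the rest, and edgeR called it in no comparison (KO 2F4 against EV 1B9 1.17, SE 0.42, adjusted p 0.0810). DESeq2 called TNFAIP2 in KO 2F4 against EV 1B9, KO 5H5 against EV 1B9 and EV 1B9 against parental.

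Among the NF-kB subunits, NFKB2 and RELB of the non-canonical arm were called and RELA and NFKB1 were not, a contrast between genes that was not tested. NFKB2, the precursor of the non-canonical p52 subunit (ENSG00000077150.20, chromosome 10, 102394110 to 102402529), had 144.7 and 191.6 CPM in KO 2F4, 102.2 and 90.7 CPM in KO 5H5, 19.6 and 34.2 CPM in EV 1B9 and 72.0 and 73.9 CPM in parental. All 4 knockout libraries were above all 4 controls, and the 4 lines did not overlap. Against EV 1B9, NFKB2 rose in KO 2F4 by 2.64 log2 units (SE 0.44, adjusted p 0.00205) and in KO 5H5 by 1.84 (SE 0.43, adjusted p 0.0242). The KO 5H5 call was lost without KO 5H5 1 (1.67, adjusted p 0.121) and without EV 1B9 1 (1.47, adjusted p 0.267). RELB, the partner of p52 (ENSG00000104856.14, chromosome 19, 45001430 to 45038198), had 51.2 and 77.3 CPM in KO 2F4, 26.9 and 25.2 CPM in KO 5H5, 14.4 and 20.7 CPM in EV 1B9 and 58.6 and 45.5 CPM in parental. KO 2F4 and parental overlapped at the top, and EV 1B9 was lowest. RELB rose in KO 2F4 against EV 1B9 by 1.87 (SE 0.43, adjusted p 0.0134), a call lost without EV 1B9 1 (1.59, adjusted p 0.0969).

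RELA, the canonical activating subunit, had 365.0 and 638.4 CPM in KO 2F4, 311.4 and 194.9 CPM in KO 5H5, 207.6 and 265.6 CPM in EV 1B9 and 378.3 and 298.1 CPM in parental. NFKB1, its partner, ranged from 28.8 to 33.4 CPM in KO 2F4, 16.9 to 26.3 CPM in KO 5H5, 25.3 to 32.8 CPM in EV 1B9 and 19.1 to 36.1 CPM in parental. Neither was called in any comparison. The inhibitors also gave no call. NFKBIA had 36.2 and 16.2 CPM in KO 2F4, 21.9 and 29.8 CPM in KO 5H5, 29.4 and 23.2 CPM in EV 1B9 and 27.4 and 90.2 CPM in parental, so KO 2F4, KO 5H5 and EV 1B9 overlapped and 1 parental library stood above. TNFAIP3, a deubiquitinase that ends the NF-kB response, stayed at or under 2.60 CPM and BIRC3, a ubiquitin ligase of the TNF receptor complex, at or under 1.28 CPM in all 8 libraries.

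The series was designed to set the knockout clones against the parental and empty vector lines. In that comparison 0 of the 20 genes tested were called by edgeR, where 1.42% of all genes were. At an unadjusted p under 0.05 there were 3, NFKB2, IL6 and CXCL2, a limit at which the share of all genes was not counted. DESeq2 also called 0, with 911 genes called in all. Limma-voom and counts summed per line called 0 too, where 0.252% and 0.0685% of all genes were called. At such low shares 0 calls say little about these genes. NFKB2 averaged 132.3 ± 45.9 CPM in the knockout libraries and 49.96 ± 27.3 CPM in the controls (SD, n = 4 libraries each). Each class holds 2 lines, so the SD mixes the gap between lines with the spread between passages. In the fit by class, NFKB2 gave 1.39 on the log2 scale (SE 0.44, adjusted p 0.144). It was the only gene of the set with no overlap between the 4 knockout and the 4 control libraries (1 of 20, against 10.3% of all genes). The median log2 fold change was 0.67 over the 20 genes and -0.14 over all genes. Calls appeared in 3 alternatives: NFKB2 and IL6 without the filter (with 714 of 32690 genes called in all), NFKB2 with GC and length offsets (3.72% of all genes), and C3, IL32, IL6 and NFKB2 with 1 mean per line (6.94%), which sets the passages and not the lines as the spread.

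Every call between 2 lines by edgeR with all 8 libraries was in a comparison that included EV 1B9. In KO 2F4 against EV 1B9, 9 of 23 genes were called, where 13% of all genes were. C3, CXCL1, CXCL2, CXCL8, IL6, IL32, NFKB2 and RELB were the 8 called higher, where 6.87% of all genes were called higher, and IL11 was called lower, where 6.11% were. The median log2 fold change was 2.23 over the 23 genes, against -0.13 over all genes. Without KO 2F4 2 there were 14 calls (9.22% of all genes), without parental 1 and KO 2F4 2 there were 16 (15% of all genes), and DESeq2 made 14. In KO 5H5 against EV 1B9, 4 genes were called, C3, IL6, IL32 and NFKB2, all higher, where 4.38% of all genes were called and 2.69% were called higher. The median was 0.91, against -0.10 over all genes. There were 2 calls without KO 5H5 1 (2.44% of all genes) or without EV 1B9 1 (3.01%), 8 without KO 2F4 1 (8.34%) or without KO 2F4 2 (8.36%), and 10 without parental 1 and KO 2F4 2 (13.2%). The summed level of 8 endothelial markers was 3.79 to 7.36 CPM in KO 2F4 and 2.19 to 2.34 CPM in KO 5H5, against 0.594 to 1.57 CPM in EV 1B9. The 16 leukocyte markers summed to 1.53 to 2.16 CPM in KO 2F4 and 2.48 to 2.74 CPM in KO 5H5, against 0.323 to 0.621 CPM in EV 1B9, with CD3E, CD3D, LYZ, FCGR3A and S100A8 at 0. The 8 fibroblast markers summed to 7.50 to 45.0 CPM in KO 2F4 and 924 to 2008 CPM in KO 5H5, against 25.3 to 124 CPM in EV 1B9. The KO 5H5 sum was mostly COL1A1. Over the 5 tested fibroblast markers the median log2 fold change against EV 1B9 was 0.35 in KO 5H5. In KO 2F4 it was 0.58, although the sums were not above those of EV 1B9. The line's own 8 epithelial markers had medians of 0.70 in KO 2F4 and 2.09 in KO 5H5. The part of these markers in the results was not tested.

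Between the control lines, EV 1B9 against parental gave 4 calls, C3, CXCL1, IL32 and LCN2, all lower, where 1.34% of all genes were called and 1.18% were called lower. The median was -1.43 over the 23 genes and -0.04 over all genes, with 19 genes below 0. There were 10 calls without KO 2F4 2, 9 without KO 2F4 1 and 7 without parental 2, where the share of all genes called was also higher, at 10.8%, 11.6% and 8.74%. Without parental 1 and KO 2F4 2 there were 6 (3.59% of all genes), and with GC and length offsets 2 (1.53%). Summed markers of other cell types were also lower in EV 1B9. The line's own epithelial markers summed to 5397 to 10014 CPM in EV 1B9, against 8259 to 15003 CPM in parental. Endothelial markers summed to 0.594 to 1.57 CPM in EV 1B9, against 2.22 to 7.16 CPM in parental, leukocyte markers to 0.323 to 0.621 CPM against 0.694 to 1.66 CPM, and fibroblast markers to 25.3 to 124 CPM against 128 to 141 CPM. Median log2 fold changes were -1.04 over 8 tested epithelial, -2.96 over 3 endothelial, -0.81 over 5 fibroblast and -0.03 over 2 leukocyte markers. The part of any of these markers in the results was not tested. The comparisons share their control libraries, so the values of one are not independent of the next. EV 1B9 also had the lowest correlations of expression with GC content (0.123 and 0.141), and their part in these differences was not tested beyond the offsets. With offsets, KO 2F4 against EV 1B9 gave 9 calls (11.7% of all genes) and KO 5H5 against EV 1B9 gave 4 (5.84%). In KO 2F4 against EV 1B9 the offsets moved NFKB2 from 2.64 to 1.88, RELB from 1.87 to 1.24 and IL32 from 4.34 to 3.57. There the offsets also moved CXCL8 from 5.08 to 5.98 and IL11 from -3.64 to -4.26. In KO 5H5 against EV 1B9 they moved IL32 from 3.86 to 3.27.

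Set against parental cells, the knockout clones gave no calls. For KO 2F4 against parental edgeR called 0 of 23, where 1.34% of all genes were called, with 4 at an unadjusted p under 0.05 and 0 by DESeq2. NFKB2 gave 1.204 (SE 0.42, adjusted p 0.204) and IL6 gave 2.57 (SE 1.00, adjusted p 0.267). For KO 5H5 against parental edgeR called 0, where 0.74% of all genes were, with 5 at an unadjusted p under 0.05 and 0 by DESeq2. The share of all genes at that unadjusted limit was not counted. The median was 0.30 for KO 2F4 and -0.90 for KO 5H5. There were 2 calls in KO 2F4 against parental without KO 2F4 1, without KO 2F4 2, without parental 2 or without parental 1 and KO 2F4 2, with 2.6% to 6.5% of all genes called. In KO 5H5 against parental there were 2 without KO 2F4 2 or without parental 1 and KO 2F4 2, and 1 without KO 2F4 1, without EV 1B9 1 or without EV 1B9 2, with 1.63% to 3% of all genes called. These p-values do not show that the clones and the parental cells were alike.

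**Figure D3:**
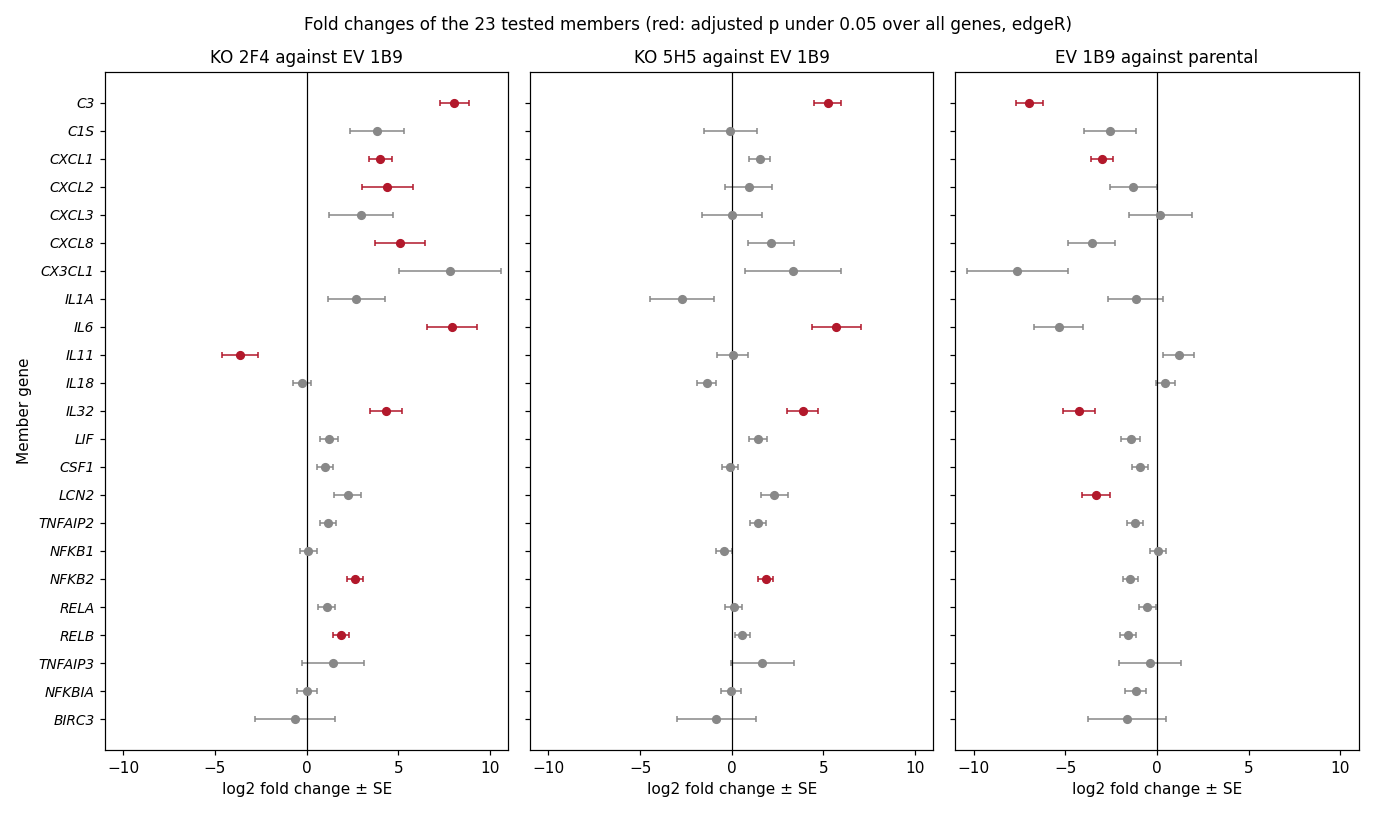
Log2 fold changes ± SE of the 23 tested genes (rows) in KO 2F4 against EV 1B9, KO 5H5 against EV 1B9 and EV 1B9 against parental, red where the adjusted p was under 0.05 over all genes (edgeR). The red points lie right of 0 in the panels that set a knockout clone against EV 1B9, except IL11, and left of 0 in EV 1B9 against parental, and the points of IL6 and CX3CL1 rest on 1 and 0 counts in EV 1B9.

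Between the 2 knockout clones no gene of the set was called by edgeR. KO 2F4 against KO 5H5 gave 0 of 23 by edgeR, where 0.392% of all genes were called. DESeq2 called 3 (C3, CXCL1 and IL11), with 345 genes called in all. At an unadjusted p under 0.05 edgeR gave 12, and the share of all genes at that limit was not counted. C3 gave 2.82 (SE 0.59, adjusted p 0.0613), CXCL1 2.48 (SE 0.58, adjusted p 0.0990) and IL11 -3.68 (SE 0.97, adjusted p 0.153). Leaving out a library gave 0 calls without KO 5H5 2 and 2 without KO 5H5 1. It gave 4 without KO 2F4 1, EV 1B9 1, EV 1B9 2 or parental 1, 5 without KO 2F4 2 and 6 without parental 2. The share of all genes called ran from 0.308% to 6.29% over these. Without parental 1 and KO 2F4 2 there were 9 calls (2.72% of all genes). Of the fibroblast markers, COL1A1 had 51 and 467 counts in KO 2F4, against 15979 and 54442 in KO 5H5, while COL3A1 was at 0 in both clones.

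The passages of KO 2F4 were not alike in these genes, and neither were those of parental. KO 2F4 1 was the highest of the 8 libraries for 9 of 23 genes, against 10.6% of all genes, and KO 2F4 2 for 5, against 18.6%. C3, CXCL1, CXCL2, CXCL3, CXCL8, IL1A, IL6, LIF and TNFAIP3 peaked in KO 2F4 1, while C1S, CX3CL1, NFKB2, RELA and RELB peaked in KO 2F4 2. CXCL3 passed the filter only through KO 2F4, so its peak in that line is no result. On the log2(CPM + 0.5) scale, 4 genes were over 4-fold apart between the KO 2F4 libraries (17.4%, against 5.21% of all genes), none between the KO 5H5 libraries, 1 between the EV 1B9 libraries (IL32) and 3 between the parental libraries. The 3 genes of the complete pattern, C3, IL6 and NFKB2, therefore include 2 that were higher in KO 2F4 1 and 1 that was higher in KO 2F4 2.

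**Figure D4:**
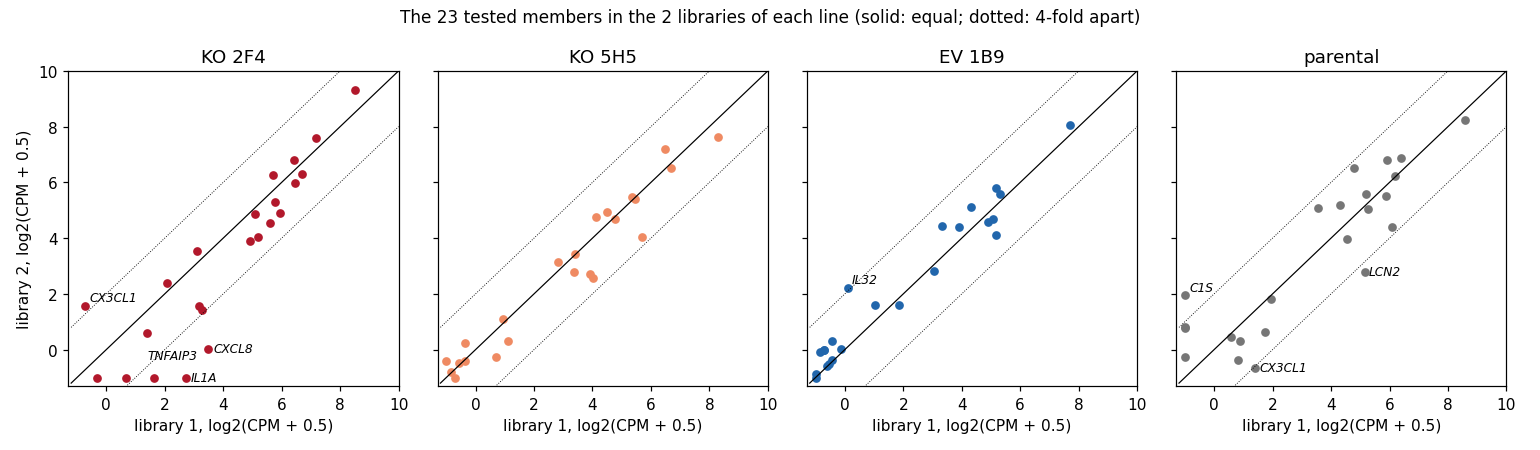
The 23 tested genes in library 1 (x axis) and library 2 (y axis) of each line, as log2(CPM + 0.5), with a solid line at equal levels and dotted lines 4-fold apart. In KO 2F4, 4 genes lie outside the dotted lines, against 0 in KO 5H5, 1 in EV 1B9 and 3 in parental.

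Other genes of the pathway were counted from lists chosen by function. Of 38 tested components of the NF-kB pathway, 10 were called higher and 1 lower in KO 2F4 against EV 1B9, where 6.87% and 6.11% of all genes were. In KO 5H5 against EV 1B9 4 were called higher, where 2.69% of all genes were. Their median log2 fold change in KO 2F4 against EV 1B9 was 0.48, against -0.13 over all genes. CD40, a receptor that feeds the non-canonical arm, had 39.8 and 50.2 CPM in KO 2F4, 46.3 and 30.0 CPM in KO 5H5, 1.84 and 2.54 CPM in EV 1B9 and 14.7 and 20.7 CPM in parental. It rose in KO 2F4 against EV 1B9 by 4.36 (SE 0.50, adjusted p 0.000108). MYD88, the adaptor of Toll-like and interleukin-1 receptors, had 45.0 and 25.9 CPM in KO 2F4, 23.7 and 27.5 CPM in KO 5H5, 5.67 and 4.76 CPM in EV 1B9 and 7.53 and 8.93 CPM in parental. Here both control lines were low, and MYD88 was called higher in the knockout libraries against the controls (2.15, SE 0.37, adjusted p 0.0152). It was the only 1 called of the 37 components tested there, where 1.42% of all genes were called. That fit takes the 2 libraries of a line as independent, so its spread mixes lines and passages. RBCK1, part of the linear ubiquitin ligase, rose in KO 2F4 against EV 1B9 by 2.32 (SE 0.46, adjusted p 0.00695).

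Of 29 other target genes of NF-kB tested, 4 were called higher and 1 lower in KO 2F4 against EV 1B9, a share near the 13% of all genes called there, and their median was -0.05. PLAUR, the urokinase receptor, rose by 2.00 (SE 0.46, adjusted p 0.0148) and GADD45B, a stress-response gene, by 1.65 (SE 0.43, adjusted p 0.0247), while RIPK2, a kinase of NOD signalling, fell by 1.76 (SE 0.47, adjusted p 0.0266). Of 9 other complement genes tested, 2 were called higher and 1 lower. SERPING1, the C1 inhibitor, rose by 4.38 (SE 1.09, adjusted p 0.0199) and CLU, a fluid-phase inhibitor of complement lysis, by 1.32 (SE 0.40, adjusted p 0.0447). CD59, the membrane inhibitor of complement lysis, fell by 1.80 (SE 0.48, adjusted p 0.0259). Of 20 receptors and signalling genes of these cytokines, PTGES, a prostaglandin E synthase, rose by 2.96 (SE 0.54, adjusted p 0.00388) and ADAM10, a sheddase of CX3CL1, fell by 1.88 (SE 0.53, adjusted p 0.0353). Of 4 other chemokines tested, CCL26 rose by 4.51 (SE 1.01, adjusted p 0.0127). These smaller lists are read against the same 6.87% of all genes called higher and 6.11% called lower.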

How the data were processed

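RNA from 8 cultures of SKOV3 was sequenced with a directional kit, per the labels. The authors deposited 1 table of raw counts per gene. Build GRCh38 and the tools STAR 2.7.3a, HTSeq 0.11.3, bcl2fastq 2.18.0.12 and DESeq2 1.26.0 are listed in the submitters' processing notes, with no roles. The sources used here state neither the annotation release nor the strand setting. The 5 summary lines that name no gene (24.1% to 44.6% of counted reads) stayed out of library sizes and tests. Symbols were found for 60649 of 67008 genes, and gene coordinates came from GENCODE 29.

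Counts were scaled with TMM and filtered with filterByExpr (minimum count 10, total 15) in edgeR 4.0.16 (R 4.3.3). The quasi-likelihood test used all 8 libraries, as 2 classes for knockout against control (13508 genes) and with 1 mean per line otherwise (15551 genes). P-values were adjusted by Benjamini-Hochberg over all genes at 0.05. The class fit takes the 2 libraries of a line as independent. CPM are from the fit by line. Scripts were tested on simulated data.

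The genes, lists and tests were chosen with earlier results of these data known. Every gene of the set is accounted for, those called in any comparison are given by library, and up to 3 genes with the smallest p are named from each further list. Replicate 2 of a line is the library with the suffix UnTx in its title, whose meaning is not given. The suffix was not taken as a pairing: deviations of same-numbered libraries correlated at -0.322 to 0.371 between lines. Alternatives were DESeq2 1.42.0, RLE size factors, no filter, limma-voom (limma 3.58.1), the suffix as a block, GC and length offsets and leaving out libraries. When a library was left out, the remaining one of its line was assumed to vary like the other lines. Counting intervals cover counting error only.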

Additional observations from a re-analysis of the deposited data

Results flagged for a closer look

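In groups of 4 libraries, the knockout or the control libraries, 46 gene and group pairs were screened for a library that stood apart, as the gap to the nearest library over the whole range, with Dixon's critical value as the limit. That limit flags about 1 in 20 groups of 4 values drawn from 1 normal distribution. Each group here holds CPM of 2 lines, so the rate by chance in these data is not known. In the knockout libraries the KO 2F4 1 library stood apart for IL1A (6.08 CPM, gap 0.988 of the range), IL1B (4.36 CPM, 0.958), CXCL8 (10.8 CPM, 0.922) and ICAM1 (2.01 CPM, 0.830). The KO 2F4 2 library stood apart for CX3CL1 (2.48 CPM, 0.954). In the controls, parental 1 stood apart for CX3CL1 (2.11 CPM, 0.934) and LCN2 (34.9 CPM, 0.856), and parental 2 for NFKBIA (90.2 CPM, 0.908) and C1S (3.38 CPM, 0.857). No library of KO 5H5 or EV 1B9 was among the 9.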

How the results depend on the processing

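Of the 17 calls of single genes in comparisons between lines, 0 changed direction under 15 alternatives. C3 in its 3 comparisons and CXCL1, IL6, IL11, IL32 and NFKB2 in KO 2F4 against EV 1B9 were called under all 15. The suffix as a block lost 6 of the 17, and GC and length offsets lost 2. The number of genes called in knockout against control was 0, with 2 without the filter, 1 with GC and length offsets, 4 with 1 mean per line and 0 without any 1 library. For KO 2F4 against EV 1B9 it was 9, with 14 by DESeq2, 7 with the replicate block, 16 without parental 1 and KO 2F4 2 and 7 to 14 without 1 library. For KO 5H5 against EV 1B9 it was 4, with 3 with the replicate block, 10 without parental 1 and KO 2F4 2 and 2 to 8 without 1 library. For EV 1B9 against parental it was 4, with 1 with the replicate block, 2 with GC and length offsets with or without that block, 10 by DESeq2 and 3 to 10 without 1 library. For KO 2F4 against parental and KO 5H5 against parental it was 0, with 2 in each without parental 1 and KO 2F4 2 and 0 to 2 without 1 library. For KO 2F4 against KO 5H5 it was 0, with 3 without the filter, 3 by DESeq2, 1 with GC and length offsets with or without the block, 9 without parental 1 and KO 2F4 2 and 0 to 6 without 1 library. For any difference among the 4 lines it was 6, with 12 without the filter, 13 by DESeq2, 4 with the replicate block, 14 without parental 1 and KO 2F4 2 and 10 to 14 without 1 library. Fits by line without 1 library kept 16983 to 19218 genes through the filter, against 15551 with all 8, and the share of all genes called moved as well. The cause of these shifts was not tested otherwise. With the replicate block, 8.96% of all genes were called in KO 2F4 against EV 1B9 and 3.37% in KO 5H5 against EV 1B9. The share with this block was 0.952% in EV 1B9 against parental and 4.62% for any difference among the 4 lines. DESeq2 called 3468 genes in all in KO 2F4 against EV 1B9 and 1400 in EV 1B9 against parental. It called 345 in KO 2F4 against KO 5H5 and 3023 for any difference among the 4 lines. Genes with few counts, such as IL6 in EV 1B9 with 1 count, have wide intervals, and 13 of the 36 genes were too low to test.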
